A study of Mus musculus with 25 samples.

Results

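The D-type cyclins, the kinases that they activate and the proteins that inhibit these kinases were examined in mouse liver. The set was chosen by gene name from the platform annotation and comprises 10 genes, read by 11 probe sets, out of 19938 genes with a named probe set. The genes are the cyclins Ccnd1, Ccnd2 and Ccnd3, the kinases Cdk4 and Cdk6, and the inhibitors Cdkn1b (p27), Cdkn2a, Cdkn2b (p15), Cdkn2c (p18) and Cdkn2d (p19). All 10 passed the filter on dim genes that left 15951 genes for testing. The livers came from mice of a mixed FVB;129 strain with 4 genotypes. DKO animals had deletions of both Rb (the retinoblastoma gene) and p53, p53KO animals of p53, RbKO animals of Rb, and WT animals of neither. Per the labels and the series text, the deletions were made with loxP alleles and Cre recombinase driven by the albumin promoter, so that hepatocytes lose the genes and other liver cells keep them. Diethylnitrosamine (DEN), a liver carcinogen whose product in hepatocytes alkylates DNA, was injected once into the abdomen (20 mg/kg) when the mice were 14 days old, and the tissue was collected 24 h later. There were 5 DEN DKO, 5 DEN p53KO, 4 DEN RbKO, 5 DEN WT, 3 untreated DKO and 3 untreated WT arrays. For the untreated mice the sample labels give no treatment, and the description of the series mentions saline. Neither the sexes nor whether each array is a different animal is labelled, and p-values hence cover only the scatter among these arrays, which may be technical.

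In a cell that enters the cycle, D cyclins accumulate in response to growth signals and bind Cdk4 or Cdk6, and the active kinase phosphorylates the retinoblastoma protein, which then releases E2F transcription factors. Proteins of the INK4 family (the products of Cdkn2a, Cdkn2b, Cdkn2c and Cdkn2d) bind Cdk4 and Cdk6 and keep them from the cyclins, whereas p27 binds complete cyclin and kinase complexes and mainly blocks those of Cdk2. In liver, cyclin D1 is known for its rise when hepatocytes re-enter the cycle after partial hepatectomy. Cdkn2a also encodes, in another reading frame, the ARF protein, which stabilizes p53.

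Promoters of 3 of the genes that changed most between DEN DKO and untreated DKO livers are shown. Cdk4 and Cdk6 fell together there, and Cdkn1b rose in 1 of its 2 probe sets. No promoter was listed for Ccnd1, which fell most, or for Ccnd2. Each runs from 250 bases before to 50 bases after the start site in RefSeq (GRCm38.p6, plus strand), at chr10:127063285-127063584 for Cdk4, chr5:3343643-3343942 for Cdk6 and chr6:134920151-134920450 for Cdkn1b. Capitals mark the E box CACGTG, the letters that Myc and related factors bind.
Cdk4 promoter: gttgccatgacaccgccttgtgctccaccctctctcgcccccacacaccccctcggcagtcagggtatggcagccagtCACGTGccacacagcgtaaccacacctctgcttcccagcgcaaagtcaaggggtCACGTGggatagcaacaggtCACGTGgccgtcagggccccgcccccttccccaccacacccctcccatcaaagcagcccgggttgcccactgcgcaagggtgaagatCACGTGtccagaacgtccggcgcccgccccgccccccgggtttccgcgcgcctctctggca
Cdk6 promoter: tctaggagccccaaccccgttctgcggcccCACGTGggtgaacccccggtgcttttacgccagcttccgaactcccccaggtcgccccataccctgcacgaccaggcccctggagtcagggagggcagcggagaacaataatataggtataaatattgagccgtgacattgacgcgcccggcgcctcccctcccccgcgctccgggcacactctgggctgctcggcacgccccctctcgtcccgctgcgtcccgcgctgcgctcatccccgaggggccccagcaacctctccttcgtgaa
Cdkn1b promoter: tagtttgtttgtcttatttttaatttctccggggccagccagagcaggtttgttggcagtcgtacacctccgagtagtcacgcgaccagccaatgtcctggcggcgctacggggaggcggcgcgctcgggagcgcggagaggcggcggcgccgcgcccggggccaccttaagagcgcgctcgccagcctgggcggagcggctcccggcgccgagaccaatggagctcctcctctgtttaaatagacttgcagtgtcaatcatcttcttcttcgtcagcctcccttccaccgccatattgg
The Cdk4 promoter held 4 matches, beginning 172, 118, 98 and 11 bases before the start site, and the Cdk6 promoter held 1, beginning 220 bases before it. The Cdkn1b window held none. Among the promoters listed for the other genes, 1 of the 2 of Cdkn2c, which was not called in that comparison, held an E box, after its start site. Of 32851 mouse promoters of the same length, 7.15% held at least 1 E box and 0.0244% (8 promoters) held 4 or more. The E2F letters TTTCGCGC, TTTGGCGC, TTTCCCGC and TTTGCCGC were searched on both strands and were found in 2.26% of all promoters. Among the 11 promoters listed for 8 of the 10 genes they occurred in 1, a Cdkn2a promoter (chr4:89294570-89294869, minus strand), as TTTCCCGC from 99 bases before the start site. A match describes letters and not binding.

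The measure is the log2 signal of each probe set after RMA normalization, so a difference of 1 is a doubling, and signals of different genes are not on a common scale. The names of the 25 arrays divide them into 3 sets. Set 1 (16 arrays) holds all 6 groups, set 2 has 1 DEN RbKO, 2 DEN WT and 1 untreated WT array, and set 3 has 2 DEN DKO and 3 DEN p53KO arrays. Set 2 stood apart from the rest on the first principal component, which carried 25.8% of the variance, so every comparison was fitted with the set as a term and is also given within set 1 where it was called. No 2 arrays were duplicates, with a highest correlation of 0.993. The deleted Rb1 was called in 0 of 11 comparisons by limma at an adjusted p under 0.05, at an unadjusted p under 0.05 in 2. These were untreated DKO against untreated WT (-0.50, adjusted p = 0.336, limma), with every DKO array below every WT array, and DEN DKO against untreated DKO (0.48). The latter groups share a genotype, so it does not bear on the deletion. DEN DKO differed from DEN WT in Rb1 by -0.29 (SE 0.19, adjusted p = 0.355) over all arrays and by -0.49 (adjusted p = 0.0136) within set 1. DEN RbKO differed from DEN WT by 0.080 over all arrays, -0.25 within set 1 and 0.78 within set 2. In set 2 the library labelled DEN RbKO replicate 4 had the highest Rb1 of all 25 arrays (6.28) and the library labelled DEN WT replicate 5 the lowest of DEN WT (5.04), against their labels, and the values within set 1 leave out both. The Rb1 probe set also covers exons that stay, which limits this check, and p53 itself was not analysed here. Xist, which is high only in females, was at 9.70 or more in 2 of 5 DEN DKO, 2 of 5 DEN p53KO, 2 of 4 DEN RbKO, 0 of 5 DEN WT, 0 of 3 untreated DKO and 2 of 3 untreated WT arrays, so sex and group were partly mixed. Hepatocyte markers such as Alb and Apoa1 were bright in every library, with a mean over 8 such genes between 11.3 and 12.0.

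Across the 11 comparisons, 12 of 110 gene and comparison pairs were called by limma, 2 higher and 10 lower. Of all genes tested, between 0.426% and 21.0% were called in a comparison. Lower calls made up between 22.0% and 86.3% of those, so a majority of lower calls is not particular to these 10 genes. Ccnd1 accounted for 5 of them, Cdk4 and Cdk6 for 2 each, and Ccnd2, Cdkn1b and Cdkn2c for 1 each. Ccnd3, Cdkn2a, Cdkn2b and Cdkn2d were called in none. The plots of the values by group show that the D cyclin and kinase genes that were called were all lower and that Cdkn1b differed most between array sets.

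**Figure D1:**
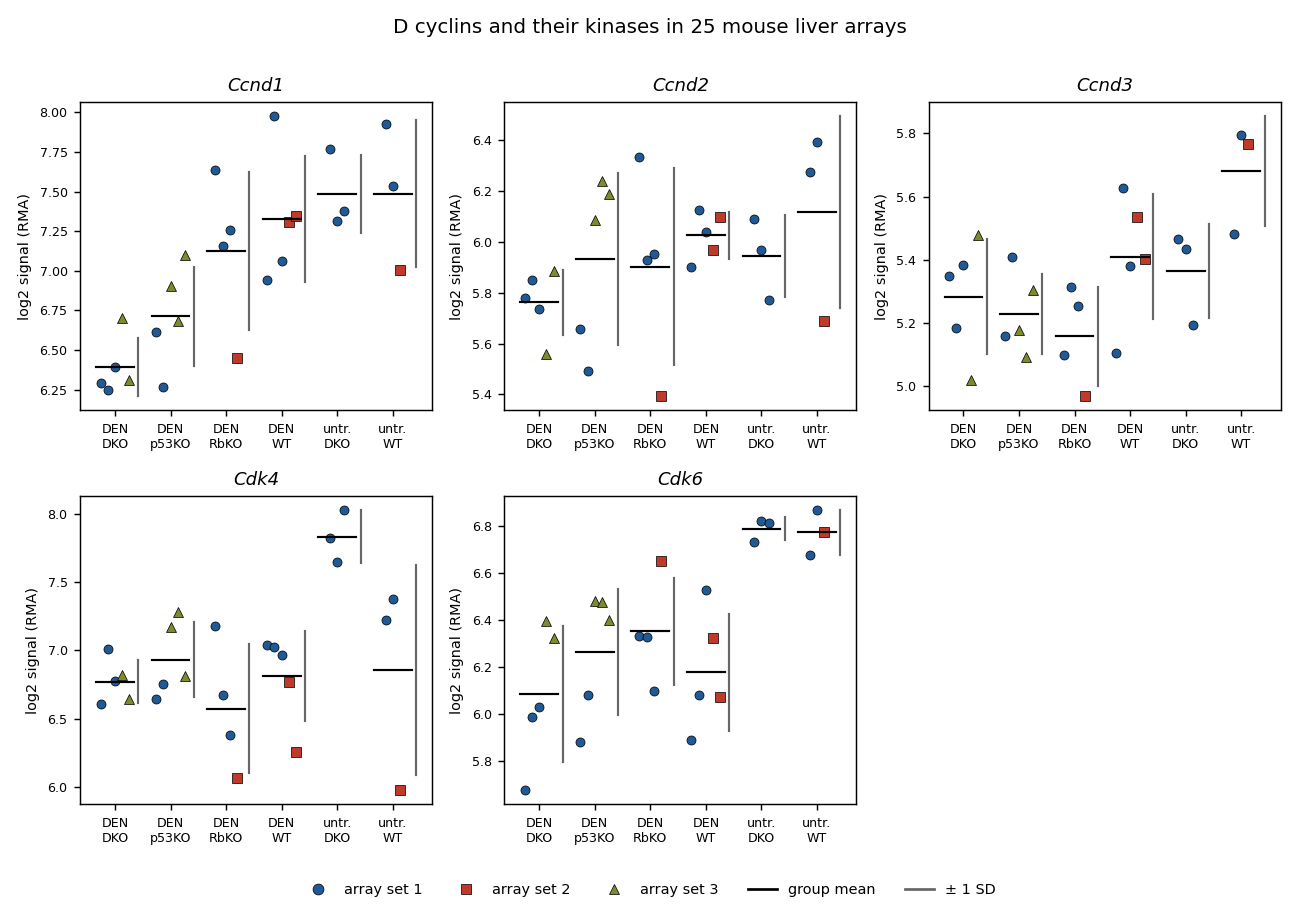
Log2 signal of the 3 D cyclins and 2 kinases (y axis) in the 6 groups (x axis), with each array as a point whose shape and colour give its set, the group mean as a black line and 1 SD as a grey bar. Ccnd1 lay between 6.25 and 6.70 in the 5 DEN DKO arrays, below every DEN WT and untreated array, and Cdk6 lay lower in every DEN array than in any untreated array.

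DEN lowered the cyclin D1 gene and both kinase genes in DKO liver, and Cdkn1b rose in 1 of its 2 probe sets. Ccnd1 fell 2.34-fold, Cdk4 2.18-fold and Cdk6 1.85-fold, while Cdkn1b rose 2.08-fold in its brighter probe set, the one counted here. Thus 4 of the 10 passed the threshold, 1 higher and 3 lower, against 21.0% of all genes tested (4.49% higher and 16.5% lower). The median difference of the 10 was -0.018, beside -0.0040 over all genes. Centring each array on the median of the genes tested moved the median of all genes by 0.11 and the share of lower genes among all those called to 52.7%, against 78.6% as reported, and the same 4 genes stayed called.

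Ccnd1 measured 6.30, 6.25, 6.39, 6.70 and 6.31 in DEN DKO arrays, against 7.77, 7.31 and 7.38 in untreated DKO arrays. The groups did not overlap, and the gap between them was larger than the spread within either. The fitted difference was -1.22 (SE 0.22, adjusted p = 0.000224, limma) and -1.17 within set 1.

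Cdk4, the kinase partner of D cyclins in most tissues, measured 6.61, 7.01, 6.77, 6.82 and 6.64 in DEN DKO arrays, against 7.82, 7.65 and 8.03 in untreated DKO arrays. Again no array of one group reached the other. By limma the difference was -1.13 (SE 0.19, adjusted p = 0.000122), and -1.04 within set 1. Cdk6, its closest relative, measured 5.68, 5.99, 6.03, 6.40 and 6.32 in DEN DKO arrays, against 6.73, 6.82 and 6.81 in untreated DKO arrays. The arrays of set 3 were the highest of the DEN DKO group and still lay below all untreated ones. The difference was -0.89 (SE 0.14, adjusted p = 5.78e-05, limma), and -0.89 within set 1. These 3 falls were called under all 14 alternative settings and without each of the 8 arrays in turn.

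Cdkn1b measured 7.80, 8.20, 8.12, 7.34 and 6.31 in DEN DKO arrays, against 7.05, 7.14 and 7.02 in untreated DKO arrays. The 3 arrays of set 1 and 1 of set 3 were higher than every untreated array, and the other array of set 3 was lower. Sets 2 and 3 read this probe set lower than set 1 by a fitted -1.81 (SE 0.22) and -1.43 (SE 0.23). With that term the difference was 1.06 (SE 0.28, adjusted p = 0.00696, limma), and within set 1 it was 0.97 (adjusted p = 6.18e-05). The second Cdkn1b probe set did not show a rise. It measured 6.85, 6.73, 6.88, 6.22 and 6.23 in DEN DKO arrays, against 6.69, 6.68 and 6.96 in untreated DKO arrays, a difference of -0.081 (adjusted p = 0.748, limma). The rise was thus seen in 1 of the 2 probe sets, and its call also ended with no set term and with the set as a random block.

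The other 6 genes were not called in this comparison. Ccnd2 was at -0.29 (95% interval -0.63 to 0.055), Ccnd3 at -0.052 (-0.34 to 0.24) and Cdkn2c at 0.41 (-0.072 to 0.90). Cdkn2a, Cdkn2b and Cdkn2d were at 0.030, 0.20 and 0.016.

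In WT liver the same exposure left Cdk6 as the only gene of the 10 called by limma, lower by 1.52-fold. That is 1 of 10, against 3.99% of all genes tested (1.91% lower), and 2 of 10 had an unadjusted p under 0.05. Cdk6 measured 5.89, 6.08, 6.53, 6.32 and 6.07 in DEN WT arrays, against 6.68, 6.87 and 6.78 in untreated WT arrays. The groups did not overlap. The difference was -0.60 (SE 0.13, adjusted p = 0.0077, limma), and it was -0.61 within set 1 and -0.58 within set 2. The call ended without untreated WT replicate 2 (adjusted p = 0.0762), with no set term, and when only these groups were fitted (adjusted p up to 0.107).

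Ccnd1 measured 6.94, 7.98, 7.06, 7.31 and 7.35 in DEN WT arrays, against 7.92, 7.53 and 7.00 in untreated WT arrays. The groups overlapped throughout, and the difference was -0.13 (95% interval -0.55 to 0.29). It was -0.40 within set 1 and 0.32 within set 2. Cdk4 measured 7.04, 7.03, 6.97, 6.77 and 6.26 in DEN WT arrays, against 7.22, 7.38 and 5.97 in untreated WT arrays. Its lowest untreated array was the one of set 2, and the fitted difference was 0.0053 (95% interval -0.36 to 0.37). Within set 1 the difference was -0.29, with every DEN WT array below every untreated one, and within set 2 it was 0.54. For Ccnd1 and Cdk4 the values near 0 over all arrays thus join sets that went in opposite directions. The 10 genes had a median difference of -0.031, beside 0.015 over all genes.

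**Figure D2:**
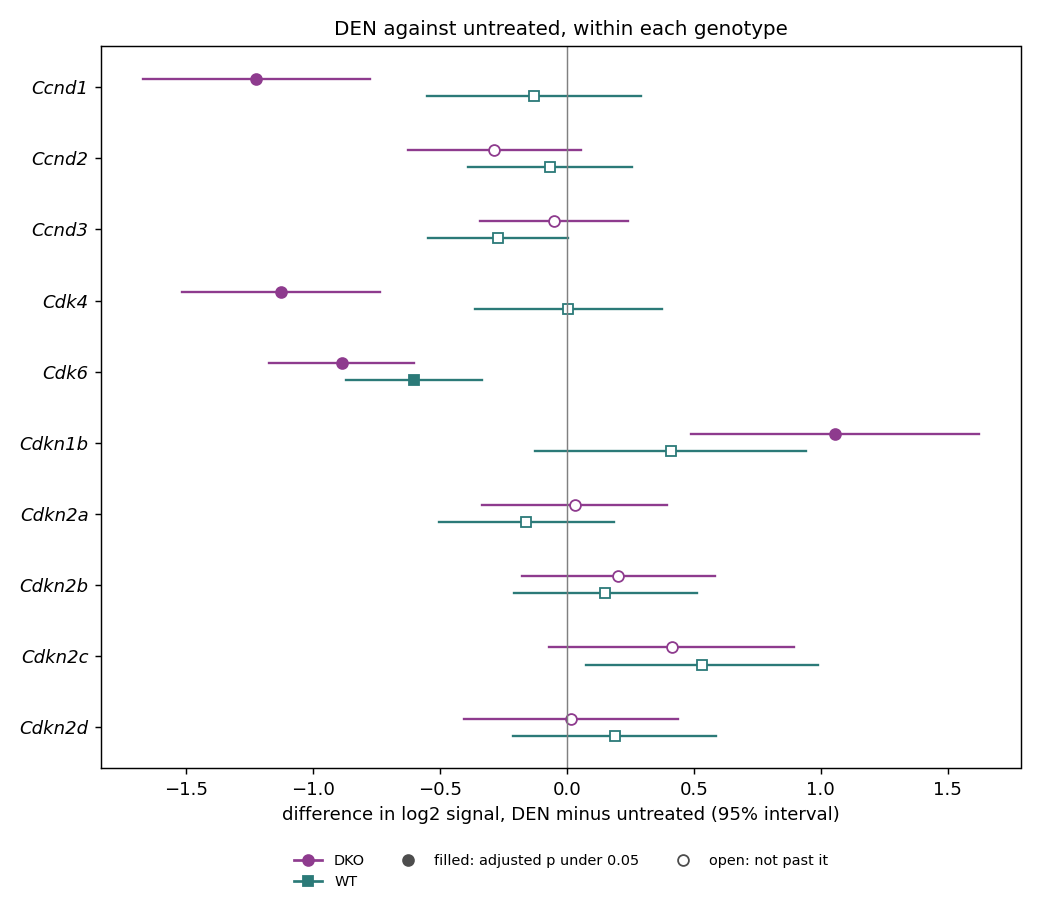
Difference in log2 signal between DEN and untreated arrays (x axis) for the 10 genes (y axis), in DKO (circles) and in WT (squares), with 95% intervals from limma and filled symbols where the adjusted p was under 0.05. Ccnd1 stood at -1.22 in DKO and -0.13 in WT, Cdk4 at -1.13 and 0.0053, and Cdk6 below 0 in both.

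Whether the response to DEN itself differed between DKO and WT was tested as the difference of the 2 differences. Ccnd1 and Cdk4 responded more negatively in DKO, which is 2 of 10 genes, against 9.91% of all genes tested (8.54% below 0). For Ccnd1 this difference was -1.09 (SE 0.30, adjusted p = 0.0194, limma) and for Cdk4 it was -1.13 (SE 0.26, adjusted p = 0.00679, limma). Both rest in part on untreated WT replicate 3, the only untreated array of set 2, and on set 2 itself. Without that array the adjusted p was 0.0922 for Ccnd1 and 0.0538 for Cdk4, and within set 1 the values were -0.77 (adjusted p = 0.161) and -0.75 (adjusted p = 0.0684). The call of Ccnd1 also ended without untreated DKO replicate 1 (adjusted p = 0.0695). With Xist as a covariate neither was called. For Cdk6 the responses differed by -0.29 (95% interval -0.68 to 0.11, adjusted p = 0.392), and for Cdkn1b by 0.65 (-0.13 to 1.43, adjusted p = 0.318).

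Before any DEN, 0 of 10 genes were called between untreated DKO and untreated WT livers by limma, against 1.11% of all genes tested, and 1 had an unadjusted p under 0.05. That gene was Cdk4, which measured 7.82, 7.65 and 8.03 in untreated DKO arrays, against 7.22, 7.38 and 5.97 in untreated WT arrays. Every DKO array was above every WT array, and the difference was 0.72 (SE 0.21, adjusted p = 0.0885). It was 0.53 within set 1, passed the threshold with array weights and passed it when only these groups were fitted. Cdkn2c measured 5.13, 4.86 and 5.05 in untreated DKO arrays, against 4.29, 4.11 and 4.46 in untreated WT arrays. These groups did not overlap either, and the difference was 0.44 (SE 0.26, adjusted p = 0.541), and 0.81 (adjusted p = 0.00512) within set 1. Ccnd1 was at -0.15 (95% interval -0.63 to 0.34) and Cdk6 at 0.057 (-0.25 to 0.37).

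After DEN, the lack of p53 went with lower Ccnd1, with or without Rb. Compared with DEN WT, Ccnd1 was 2.37-fold lower in DEN DKO, 1.98-fold lower in DEN p53KO and not called in DEN RbKO. These comparisons share the DEN WT arrays. The gene measured 6.30, 6.25, 6.39, 6.70 and 6.31 in DEN DKO, 6.62, 6.27, 6.90, 6.68 and 7.10 in DEN p53KO, 7.64, 7.16, 7.26 and 6.45 in DEN RbKO, and 6.94, 7.98, 7.06, 7.31 and 7.35 in DEN WT arrays. The DEN DKO arrays were all below the DEN WT arrays, the highest DEN p53KO array lay inside the WT range, and the only low DEN RbKO array was the library labelled replicate 4, of set 2.

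**Figure D3:**
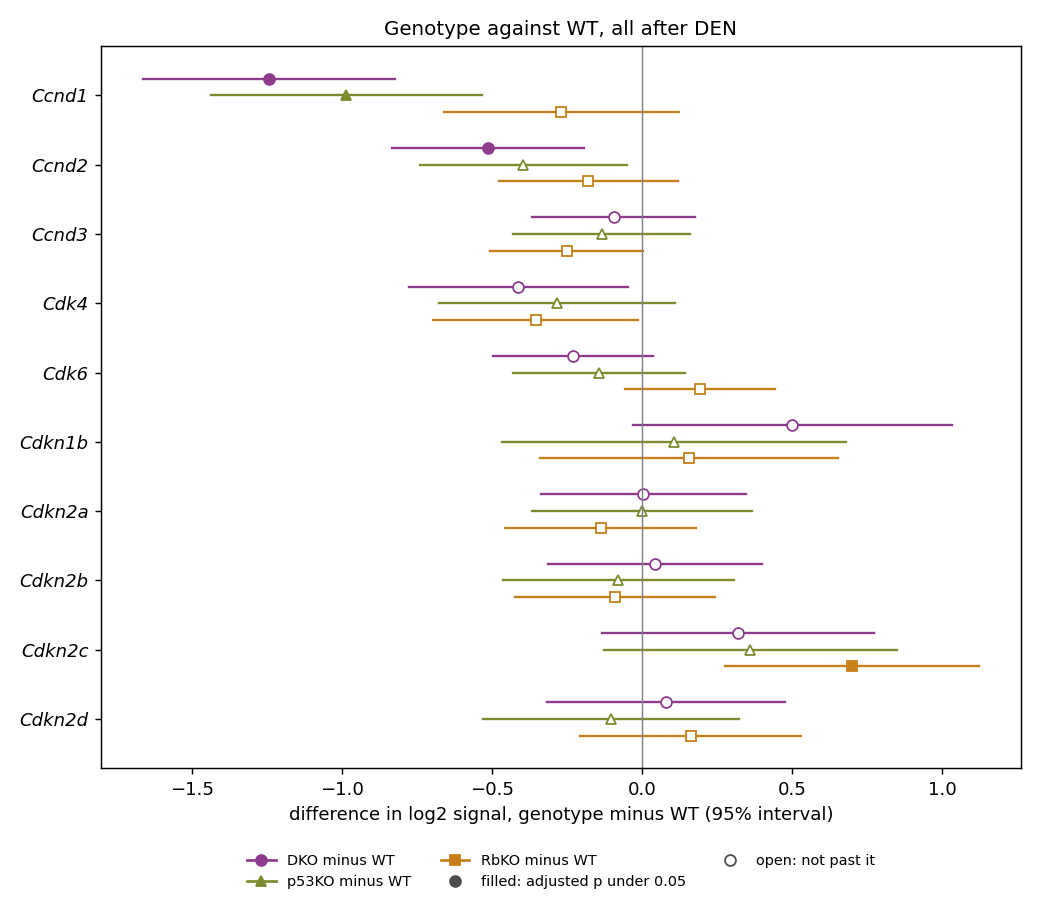
Difference in log2 signal from DEN WT (x axis) for the 10 genes (y axis) in DEN DKO (circles), DEN p53KO (triangles) and DEN RbKO (squares), with 95% intervals from limma and filled symbols where the adjusted p was under 0.05. Ccnd1 stood at -1.24, -0.99 and -0.27 in these 3 genotypes, and Cdkn2c was called in DEN RbKO alone, at 0.70.

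The difference of DEN DKO from DEN WT in Ccnd1 was -1.24 (SE 0.20, adjusted p = 0.000356, limma), and -1.02 (adjusted p = 0.00569) within set 1. It was called under all 14 alternative settings. Ccnd2 also fell in this comparison, which makes 2 of 10 called, both lower, against 11.8% of all genes tested (9.14% lower). Ccnd2, which encodes cyclin D2, measured 5.78, 5.85, 5.74, 5.56 and 5.88 in DEN DKO arrays, against 5.90, 6.13, 6.04, 5.97 and 6.10 in DEN WT arrays. The groups were separated by a narrow gap, and the difference was -0.51 (SE 0.16, adjusted p = 0.0317, limma). Within set 1 it was -0.23 (adjusted p = 0.251), and it passed the threshold under 5 of 14 alternative settings. The call also ended without DEN WT replicate 2 (adjusted p = 0.0506), the library labelled DEN WT replicate 5 (0.0506) or DEN DKO replicate 3 (0.0502).

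DEN p53KO differed from DEN WT in Ccnd1 by -0.99 (SE 0.22, adjusted p = 0.0233, limma), and by -0.89 (adjusted p = 0.0368) within set 1. This was 1 of 10 genes, against 1.78% of all genes tested (1.07% lower). The adjusted p was 0.0614 without DEN WT replicate 2, 0.0683 without DEN p53KO replicate 1 and 0.136 without DEN p53KO replicate 2, and the call also ended with no set term, without set 2 and when only these groups were fitted. Ccnd2 was at -0.39 (95% interval -0.74 to -0.050, adjusted p = 0.225).

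DEN RbKO differed from DEN WT in 1 of 10 genes, against 11.4% of all genes tested (5.23% higher). The gene was Cdkn2c, the INK4 inhibitor p18. It measured 5.87, 5.74, 5.73 and 5.02 in DEN RbKO arrays, against 5.66, 5.15, 5.33, 3.63 and 4.03 in DEN WT arrays. The lowest values of both groups were those of set 2, and within each set every DEN RbKO array was above every DEN WT array. The difference was 0.70 (SE 0.21, adjusted p = 0.0294, limma), 0.40 (adjusted p = 0.137) within set 1 and 1.19 within set 2, where the Rb1 of 2 libraries went against their labels. The call ended without DEN RbKO replicate 1 (adjusted p = 0.0544), the library labelled DEN RbKO replicate 4 (0.152), DEN WT replicate 4 (0.081) or the library labelled DEN WT replicate 5 (0.073), and with Xist as a covariate. Ccnd1 was at -0.27 (95% interval -0.66 to 0.12) in DEN RbKO.

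Among the deleted genotypes, 1 of 10 genes was called between DEN DKO and DEN RbKO, against 1.03% of all genes tested (0.884% lower). Ccnd1 was lower in DEN DKO by 1.97-fold, a difference of -0.98 (SE 0.21, adjusted p = 0.0174, limma), and -1.04 (adjusted p = 0.0185) within set 1. Without DEN RbKO replicate 1 its adjusted p was 0.0972, and the call ended with no set term and after another quantile normalization. Between DEN DKO and DEN p53KO 0 of 10 genes were called by limma, against 1.87% of all genes tested, and 0 had an unadjusted p under 0.05. The difference in Ccnd1 was -0.26 (95% interval -0.63 to 0.11). Between DEN p53KO and DEN RbKO 0 of 10 were called by limma, against 0.577% of all genes tested, and 2 had an unadjusted p under 0.05. The difference in Ccnd1 there was -0.72 (95% interval -1.17 to -0.26, adjusted p = 0.162), and -0.91 (adjusted p = 0.0456) within set 1. A departure of the DKO effect from the sum of the single ones was called in 0 of 10 genes by limma, against 0.426% of all genes tested, and 1 had an unadjusted p under 0.05. For Ccnd1 that departure was 0.010 (95% interval -0.53 to 0.55). For Cdkn2c it was -0.74 (95% interval -1.33 to -0.16, adjusted p = 0.168).

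Fitted group levels on the scale of set 1 gave the order of the groups for each gene. Ccnd1 was at 6.26 in DEN DKO, 6.52 in DEN p53KO, 7.24 in DEN RbKO, 7.51 in DEN WT, 7.49 in untreated DKO and 7.63 in untreated WT. Of the neighbours in that order, only DEN p53KO and DEN RbKO were farther apart (0.72) than the residual SD of 0.28. Cdk6 was at 5.90 in DEN DKO, 5.98 in DEN p53KO, 6.32 in DEN RbKO, 6.13 in DEN WT, 6.79 in untreated DKO and 6.73 in untreated WT. All 4 DEN groups were thus below both untreated groups, p53KO and RbKO having no untreated arrays of their own, and the gap of 0.41 between untreated WT and DEN RbKO exceeded the residual SD of 0.18. Cdk4 was at 6.71 in DEN DKO, 6.84 in DEN p53KO, 6.76 in DEN RbKO, 7.12 in DEN WT, 7.83 in untreated DKO and 7.11 in untreated WT. Untreated DKO stood 0.72 above the next group, against a residual SD of 0.24.

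**Figure D4:**
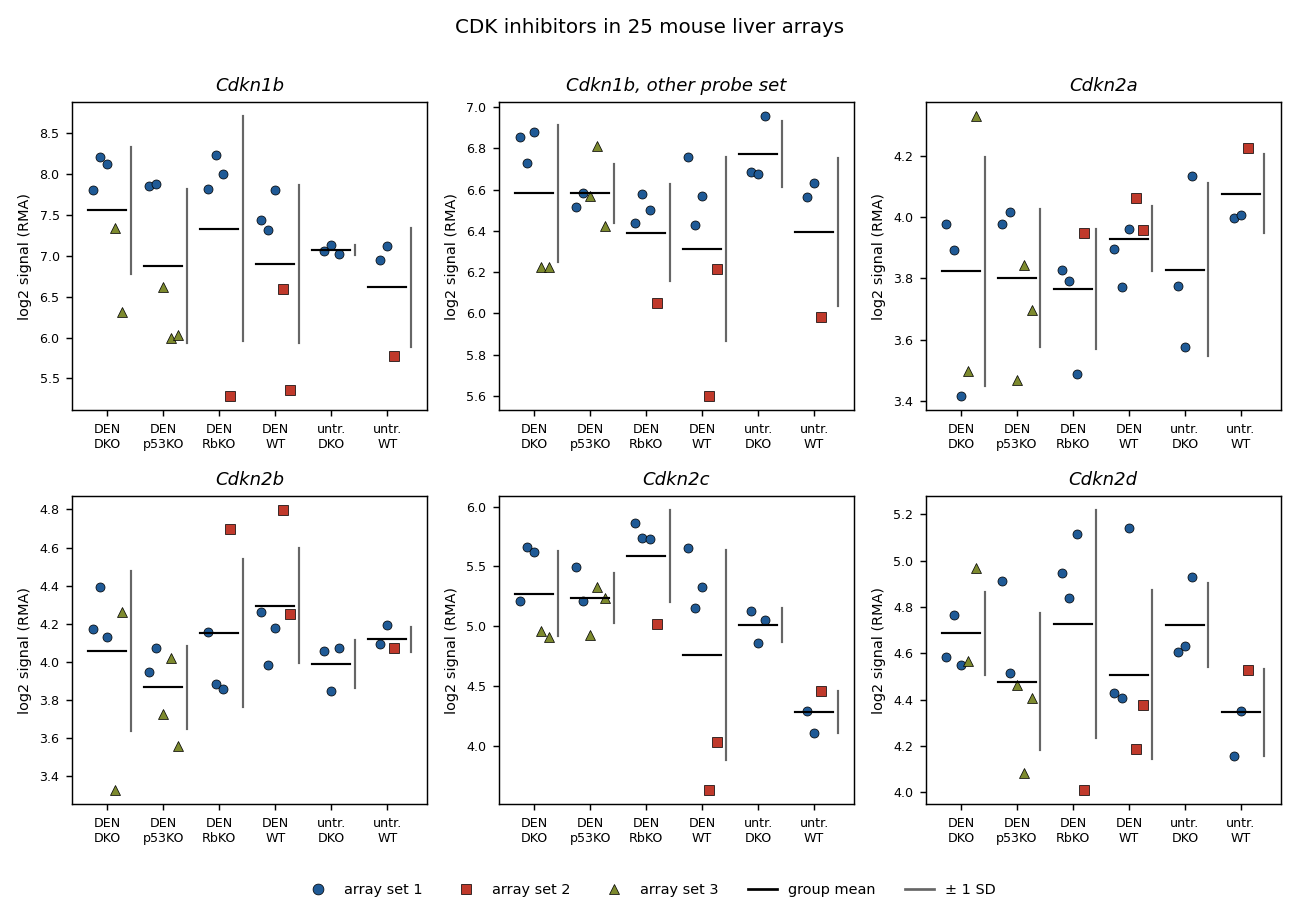
Log2 signal of the CDK inhibitors (y axis) in the 6 groups (x axis), with both probe sets of Cdkn1b, each array as a point whose shape and colour give its set, the group mean as a black line and 1 SD as a grey bar. In the brighter Cdkn1b probe set the arrays of sets 2 and 3 lay below those of set 1 in every DEN group, and the Cdkn2c arrays of set 2 were the lowest of DEN RbKO and DEN WT.

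Cdkn2c had the widest fitted range among the INK4 genes, 1.23 on the log2 scale. Its fitted level was 5.42 in DEN DKO, 5.47 in DEN p53KO, 5.80 in DEN RbKO, 5.11 in DEN WT, 5.01 in untreated DKO and 4.57 in untreated WT. The difference of DEN WT from untreated WT had opposite signs in sets 1 and 2, and a dependence on the set was not tested. In WT the difference from untreated was 0.53 (adjusted p = 0.203, limma) over all arrays, 1.18 (adjusted p = 0.000141) within set 1 and -0.63 within set 2, where 2 DEN arrays stood against 1 untreated one. In DKO the difference from untreated was 0.49 (adjusted p = 0.0188, limma) within set 1, the only set with untreated DKO arrays.

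The remaining genes gave small differences in every comparison. Ccnd3, which encodes cyclin D3, ranged from 4.97 to 5.80 over the 25 arrays, with differences between -0.31 and 0.29 and a lowest adjusted p of 0.203 in limma. Cdkn2d ranged from 4.01 to 5.14, with differences between -0.27 and 0.25. Cdkn2a ranged from 3.42 to 4.33 with differences between -0.19 and 0.19, and Cdkn2b from 3.33 to 4.80 with differences between -0.090 and 0.21. The means of Cdkn2a (3.86) and Cdkn2b (4.08) were under a stricter dimness limit of 4.15, which bounds the changes that could be seen in these 2 genes. Which transcripts of Cdkn2a its probe set reads is not given in the sources used here.

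Of 31 further genes of the G1 to S pathway, 30 were tested. In DEN DKO against untreated DKO 1 was called higher and 4 lower, against 21.0% of all genes tested in either direction. The list median was 0.027. Ccne2 (cyclin E2, which activates Cdk2) rose by 1.18 (adjusted p = 0.00142, limma), while E2f4, Fbxo31 and Ambra1 fell, at -0.50, -0.58 and -0.50. The last pair of genes encode adaptors of ubiquitin ligases that target D cyclins. In DEN WT against untreated WT 1 was called, Cks1b at 0.61, against 3.99% of all genes tested. Between the responses, 1 was called above and 1 below 0, Ccne2 at 1.18 and E2f4 at -0.57, against 9.91% of all genes tested. Between the untreated genotypes 0 were called, against 1.11%.

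After DEN, 4 pathway genes were called higher and 1 lower in DKO against WT, 2 higher and 0 lower in p53KO, and 7 higher and 1 lower in RbKO. Of all genes tested, 11.8% were called in either direction in DKO, 1.78% in p53KO and 11.4% in RbKO. Ccne2 rose in all 3 genotypes, by 1.05 in DKO, 1.03 in p53KO and 1.32 in RbKO (adjusted p = 0.00524, 0.0372 and 0.00136, limma). Ccna2 (cyclin A2, active in S phase and later) rose by 1.05 in DKO and 1.17 in RbKO. Rbl1, which encodes the Rb relative p107, rose by 0.65 in DKO and 1.05 in RbKO, and Cdkn1c (p57) by 0.64 in p53KO. Fbxw7, which marks cyclin E for degradation, was higher by 0.71 in RbKO against WT and by 0.57 in DKO against p53KO, and lower, at -0.96, in p53KO against RbKO. Cdc37, the co-chaperone that loads Cdk4 and Cdk6 onto Hsp90, was lower, at -0.55, in DKO. E2f8 rose by 0.77 in DKO and 0.78 in RbKO. Cyclin E2 and A2 thus rose in the DKO livers in which the D cyclin genes Ccnd1 and Ccnd2 fell. Cdkn1a (p21) was not analysed here.

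In whole liver, fewer cells of a type and less RNA per cell cannot be told apart. Of 8 hepatocyte genes, 1 was called higher (Alb, 0.34) and 3 lower (Hnf4a at -1.37, Apob at -0.45 and Apoa1 at -0.31) in DEN DKO against untreated DKO. The mean of that list ran between 11.3 and 11.5 in DEN DKO and between 11.7 and 11.8 in untreated DKO, with no overlap, and 1 of the 8 was called lower in DEN DKO against DEN WT. Markers of endothelium, such as Pecam1, Cdh5 and Stab2, were called lower in some of the comparisons that called Ccnd1 lower. Where Ccnd1 was not called, Stab2 was lower in DEN WT against untreated WT (-0.90) and Clec4g in DEN RbKO against DEN WT (-0.53). Of 9 endothelial genes, 8 were called lower in DEN DKO against untreated DKO, 6 in DEN DKO against DEN WT and 3 in DEN DKO against DEN RbKO. In DEN p53KO against DEN WT 0 of these 9 were called, and their median was -0.46. Their mean log2 signal ran between 5.69 and 6.02 in DEN DKO, 5.75 and 6.25 in DEN p53KO, 6.16 and 6.44 in DEN RbKO, 6.28 and 6.67 in DEN WT, 6.69 and 6.78 in untreated DKO and 6.37 and 6.79 in untreated WT. Of 9 stellate cell and matrix genes, 7 were called lower in DEN DKO against untreated DKO, 2 in DEN DKO against DEN WT and 2 in DEN p53KO against DEN WT. In the first of these the mean of the list ran between 5.58 and 5.82 in DEN DKO and between 6.44 and 6.48 in untreated DKO. Of 7 neutrophil genes, 5 were called lower in the same comparison, and their mean ran between 4.89 and 5.97 in DEN DKO and between 6.35 and 7.10 in untreated DKO. Untreated DKO was itself high in this list, whose mean ran between 4.77 and 4.94 in untreated WT. Between these untreated groups 3 of the 7 were called higher in DKO, against 1.11% of all genes tested in either direction. In DEN DKO against DEN WT 1 of the 7 was called lower, and the list median was 0.087. Of 7 macrophage genes 2, and of 4 erythroid genes 2, were also called lower in DEN DKO against untreated DKO. For the difference of responses between DKO and WT, 5 of the 9 endothelial, 3 of the 9 stellate and 4 of the 7 neutrophil genes were called below 0. Of all genes tested, 16.5% were called lower (4.49% higher) in DEN DKO against untreated DKO and 9.14% lower in DEN DKO against DEN WT. The share called lower was 0.884% in DEN DKO against DEN RbKO and 1.07% in DEN p53KO against DEN WT. For the difference of responses 8.54% were below 0. No defining marker of the endothelial, stellate and neutrophil lists lay under the dimness filter. The part of these cells in the falls of Ccnd1, Cdk4 and Cdk6 was not tested.

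Of 7 genes of dividing cells, 3 were called higher in DEN DKO against untreated DKO and 4 in DEN DKO against DEN WT, where Ccnd1 fell. Of all genes tested, 4.49% were called higher in the former comparison. In the latter, 429 of 15951 were called higher, and 11.8% in either direction. In the other 3 comparisons that called Ccnd1 lower, 0 of the 7 were called by limma, with list medians of 0.61 in DEN p53KO against DEN WT, -0.048 in DEN DKO against DEN RbKO and 0.11 for the difference of responses. Against 5.23% of all genes tested, 5 of the 7 were called higher in DEN RbKO against DEN WT, where Cdkn2c rose. Their mean ran between 7.03 and 7.29 in DEN DKO, 6.57 and 7.28 in DEN p53KO, 6.78 and 7.03 in DEN RbKO, 5.23 and 6.58 in DEN WT, 6.30 and 6.59 in untreated DKO and 5.37 and 5.76 in untreated WT. Within DEN WT the arrays of set 1 ran between 6.43 and 6.58, and those of set 2 were at 5.36 and 5.23. The DEN RbKO arrays of set 1, highest in Cdkn2c, ran between 6.78 and 6.97, and the library labelled DEN RbKO replicate 4 was at 7.03 with Cdkn2c at 5.02. The part of cell division in the Ccnd1 and Cdkn2c values was not tested.

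**Figure D5:**
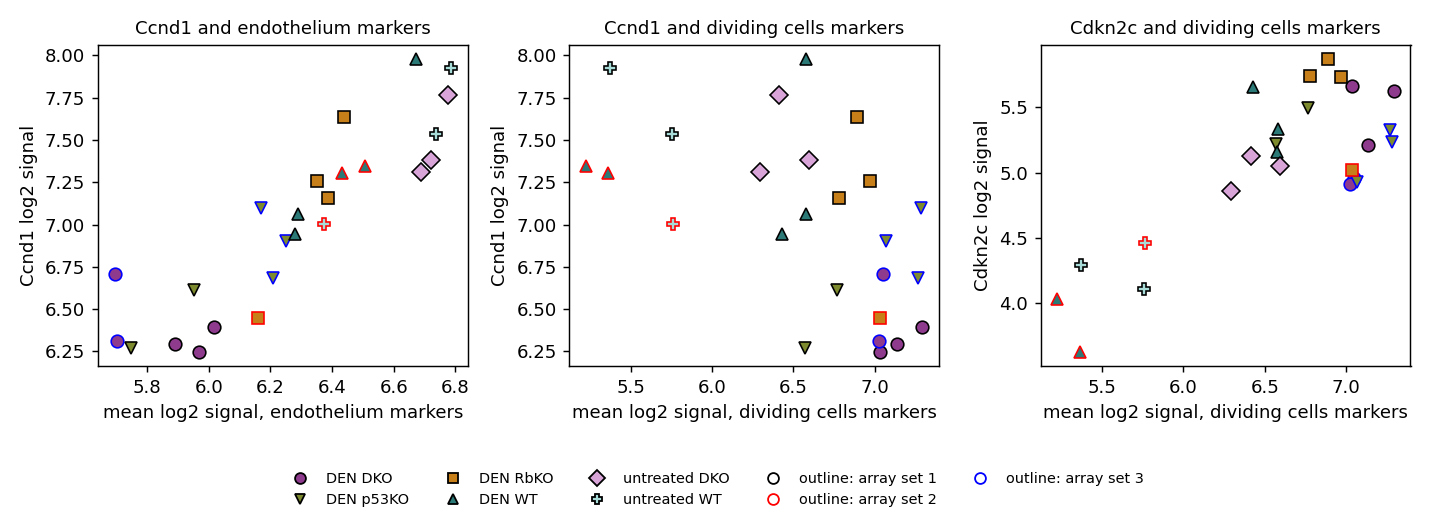
Ccnd1 against the mean of 9 endothelial markers (left), Ccnd1 against the mean of 7 dividing-cell markers (middle) and Cdkn2c against those 7 markers (right), all as log2 signals, with each array as a point whose shape gives its group and whose outline gives its array set. The DEN DKO arrays sit at the low end of both axes on the left and at the lower right in the middle, and untreated WT arrays sit at the lower left on the right.

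The genes most like each of the 10 were sought by Pearson correlation over the 25 arrays after the mean of each set was removed. The arrays of a group share their genotype and treatment, so the values describe these data only. The nearest genes to Ccnd1 were Pecam1 (r = 0.858), the endothelial adhesion molecule, then Sec31a (0.853) and Ddost (0.837). Cdkn2c was nearest to Kif20a (0.909), Spc25 (0.896) and Dnajc9 (0.878), the first 2 of which act in mitosis. Cdk4 was nearest to Csnk1g2 (0.888), Ethe1 (0.882) and Mtch1 (0.878), and Cdk6 to Reln (0.868), a marker of stellate cells, Cecr2 (0.859) and Kdm2a (0.851). Ccnd2 was nearest to Gulo (0.856), Hsd17b11 (0.844) and Mtarc2 (0.835), and Cdkn1b to Atp5md (0.819), Exosc3 (0.788) and Rps12 (0.786). Cdkn2b was nearest to Tnf (0.796), Cdkn2a to Unc5cl (0.796), Cdkn2d to Prtg (0.729) and Ccnd3 to Arhgap44 (0.698). Among the 45 pairs of the 10 genes, Ccnd1 and Ccnd2 were the most alike (0.741), followed by Cdk4 and Cdk6 (0.626), and Ccnd3 and Cdkn2c were the most opposed (-0.652).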

How the data were processed

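RNA of frozen livers was amplified and biotinylated for Affymetrix mouse gene arrays read in 1 colour, per the labels. The deposited values are log2 signals, and per the submitters' processing notes they come from RMA in Affymetrix Expression Console 1.1. It is not stated whether 1 RMA run took in every array. Of 35555 probe sets, 21789 had 1 gene symbol. A gene with several was read by the probe set with the highest mean, which left 19938 genes. Those under the 20th percentile of mean signal (3.33) were left out as dim.

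The model held a mean per group and a term per array set, over the 25 arrays, in limma 3.58.1 and R 4.3.3 (statmod 1.5.0 for the random block). Tests were two-sided with Benjamini-Hochberg adjustment over 15951 genes, and a gene was called at an adjusted p under 0.05. The fit was tested on simulated data. The effect of 15 other settings, and of 2 chosen after seeing the data, is given at the end. All 10 genes are named, pathway genes by their p (at most 4 per comparison) and similar genes by correlation (3 per gene). The members and lists were chosen with earlier results of these data known. Promoters are from a RefSeq table (GRCm38.p6), in which 8 of the 10 genes were matched. Coordinates are those of that table, since the build used by the authors is not given in the sources used here. The number of arrays limits the precision.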

Additional observations from a re-analysis of the deposited data

Results flagged for a closer look

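In 4 of 40 sets of member and group, 1 array stood far from the others by Dixon's ratio. The ratio took values with the array sets left in. The rate of about 1 in 20 from chance alone thus does not apply, since these groups join arrays of different sets. Cdkn1b was at 5.28 in the library labelled DEN RbKO replicate 4, the only array of set 2 in its group, with the others at 7.81 or more. Cdkn2c was at 5.02 in the same array, with the others at 5.73 or more. Set 2 as a whole read lower than set 1 by a fitted -1.81 for Cdkn1b and -0.86 for Cdkn2c. Cdkn2b was at 3.33 in DEN DKO replicate 4 of set 3, with the others at 4.13 or more. Cdkn2d was at 5.14 in DEN WT replicate 3 of set 1, with the others at 4.43 or less.

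The response to DEN differed between DKO and WT by the test of the difference itself in Ccnd1 (-1.09) and in Cdk4 (-1.13), each more negative in DKO. Both calls ended within set 1, without set 2, with no set term and with Xist as a covariate. They also ended without untreated WT replicate 3.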

How the results depend on the processing

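Of 2699 recomputed member differences, 2615 kept their direction and side of the threshold or were called in neither fit (210 of the uncalled ones turned sign), 47 lost and 19 gained the call, 17 had no test and moved, and 1 reversed, Cdkn1b in DEN DKO against untreated DKO at -0.081 with its other probe set. The causes were not tested. The falls of Ccnd1, Cdk4 and Cdk6 in DEN DKO against untreated DKO and of Ccnd1 in DEN DKO against DEN WT held under each of 14 settings. The numbers of members called were otherwise as follows. With no set term they were 0 in DEN WT against untreated WT, 0 for the difference of responses, 0 in p53KO, 0 in RbKO and 1 in DKO against WT, and 0 in DKO against RbKO. With the set as a random block, and with arrays centred on their median, 1 was called in DKO against WT. In set 1 alone they were 2 in DEN WT, 0 for the difference of responses, 1 between untreated genotypes, 0 in RbKO against WT and 1 in p53KO against RbKO, and Cdkn1b was called in place of Ccnd2 in DKO against WT. Without set 2 they were 2 in DEN WT, 1 for the difference of responses, 1 between untreated genotypes, 0 in p53KO, 0 in RbKO and 1 in DKO against WT, and the 1 for the difference of responses was Cdkn2c (-0.77), since Ccnd1 and Cdk4 both lost the call. Quantile normalization again gave 1 for the difference of responses, 1 in DKO against WT and 0 in DKO against RbKO. Array weights gave 2 in DEN WT, 2 between untreated genotypes and 1 in DKO against WT. Of all genes, array weights called 1943 in DEN WT and 1575 between untreated genotypes. Xist as a covariate gave 0 for the difference of responses, 0 in RbKO and 1 in DKO against WT. Fitting only the groups compared gave 0 in DEN WT, 1 for the difference of responses, 2 between untreated genotypes, 0 in p53KO and 1 in DKO against WT, and 1 in p53KO against RbKO. With 1 array left out, the range was 0 to 2 in DEN WT, 0 to 2 for the difference of responses, 0 to 1 between untreated genotypes, 0 to 1 in p53KO, 0 to 1 in RbKO and 1 to 2 in DKO against WT, and 0 to 1 in DKO against RbKO.

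The number of all genes called ranged, over the settings, from 2605 to 4770 in DEN DKO against untreated DKO (3344 as reported), 142 to 1943 in DEN WT (636), 664 to 2391 for the difference of responses (1580), 72 to 1575 between untreated genotypes (177), 154 to 1256 in p53KO (284), 193 to 1993 in RbKO (1811), 523 to 2284 in DKO against WT (1887), 27 to 777 in DKO against p53KO (298), 30 to 280 in DKO against RbKO (164), 23 to 533 in p53KO against RbKO (92) and 1 to 210 for the departure from additivity (68). Centring on the genes tested moved the median of all genes by 0.13 for the difference of responses, and centring on all probe sets, chosen after seeing the data, moved it by -0.12 there and by -0.10 in DEN DKO against untreated DKO. The share of lower calls was 86.3% as reported, 63.3% centred and 60.2% after quantile normalization for the difference of responses. It was 77.3%, 57.4% and 54.2% in DKO against WT, 53.9%, 34.4% and 46.1% in RbKO against WT, 60.2%, 47.3% and 51.7% in p53KO against WT, 22.0%, 34.3% and 40.8% between untreated genotypes, 80.9%, 68.3% and 52.9% in DKO against p53KO, 86.0%, 84.2% and 73.2% in DKO against RbKO and 76.5%, 83.5% and 58.1% for the departure from additivity. After quantile normalization it was 56.4% in DEN DKO against untreated DKO. No paired analysis was possible because the groups share no replicate numbers from the labels. Cdkn2a and Cdkn2b gave no value with the filter at the 40th percentile, being dimmer.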
